A study of Homo sapiens with 4 samples.

Results

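The genes described here encode integrin subunits that build receptors for collagen, fibronectin and related matrix proteins: ITGA2, ITGA3, ITGA5, ITGAV, ITGB1, ITGB5, ITGB6 and ITGB8. The 8 genes were taken by symbol from the platform's probe annotation, with every probe set that names only that gene. Of the 8, 7 had such a probe set, out of 19775 genes with one, and they held 21 probe sets between them. The 4 probe sets that name ITGB6 also name LINC02478, so ITGB6 has no value here. All 7 measured genes passed the brightness minimum, as did 12951 genes in all.

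RNA came from MCF10A, an immortalised but non-tumorigenic epithelial line from human breast, and was hybridised to Affymetrix U133 Plus 2.0 arrays. The control group (n = 2) expressed a control short hairpin RNA, and the group labelled double knockdown (n = 2) expressed hairpins against CBL and CBLB, ubiquitin ligases that tag activated tyrosine kinase receptors for breakdown. All cells were grown in DFCI-1 medium and harvested under normal growth conditions. The labels do not state whether the hairpin cells were a clone or a pool, nor whether replicate arrays stand for separate cultures. Every p-value below therefore rests on array-to-array spread, which may be only technical.

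An integrin is a pair of an alpha and a beta subunit that spans the cell membrane, binds matrix proteins outside and couples to the actin skeleton through talin and kindlin inside. ITGB1 is the most widely shared beta subunit. It pairs with ITGA2 in a collagen receptor, with ITGA5 in the main fibronectin receptor and with ITGA3 in a receptor chiefly for laminins, so the collagen and fibronectin label is loose for ITGA3. Among the beta subunits described here, ITGAV pairs with ITGB1, ITGB5, ITGB6 or ITGB8, which is not a complete list of its partners. The paired receptors recognise the RGD motif of fibronectin, vitronectin and latent forms of TGF-beta. In mammary epithelium, integrins anchor basal cells to the matrix.

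The targeted transcripts were checked first. The brightest CBL probe set read 126 and 84.4 in the control against 31.1 and 29.0 on the arrays labelled double knockdown. By limma its log2 change was -1.37 ± 0.15 SE (adjusted p = 0.00139). Of the 3 CBL probe sets above the brightness minimum only 1 was called, and the others had smaller log2 changes of -0.33 and -0.20. CBLB was not lower: it read 64.3 and 70.05 in the control against 94.8 and 99.5 (log2 change 0.45 ± 0.09 SE, adjusted p = 0.0148 by limma). Of its 2 probe sets above the minimum 1 was called, and the other had a log2 change of 0.40. The call was lost without either array labelled double knockdown, with the same sign in each fit. The CBLB part of the label is thus not borne out by its transcript, and all directions below are those of the labelled arrays. The list of epithelial and basal mammary markers held 8 genes, of which KRT6A, KRT17 and TP63 had no probe set of their own. The 5 with one (KRT5, KRT14, CDH3, EGFR and CDH1) were all above the brightness minimum. Their summed intensity was 24549 and 23982 in the control against 12214 and 11484 on the arrays labelled double knockdown. The lower sum came from KRT5 and KRT14, while the control and double knockdown means were 969 and 1122 for CDH3, 899.6 and 905 for CDH1 and 523 and 486 for EGFR. The hormone receptor luminal list, with PGR and FOXA1 below the minimum, summed to 294 and 196 in the control against 171 and 164, mainly GATA3 (246 and 157 against 132.8 and 115; log2 difference -0.61, adjusted p = 0.0567 by limma). The part of these marker differences in the results below was not tested. PTPRC and LYZ of the leukocyte list, VWF, CDH5 and KDR of the endothelial list, and COL3A1, PDGFRA and PDGFRB of the fibroblast list lay below the brightness minimum, and the sums of those lists were 66.0 to 72, 56.1 to 57.0 and 220 to 223 in the control against 66.3 to 67.7, 49.3 to 52.3 and 190.5 to 219.8.

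Among the integrin subunits, ITGAV passed the test and was lower, and 6 of the 7 measured genes did not pass it. ITGA5 and ITGA2 were higher on both arrays labelled double knockdown than on both control arrays but missed the threshold. Of all genes tested, 57.5% had groups that did not overlap, in either direction. ITGB1, the shared partner, differed by less than the spread of its arrays on each of its 3 bright probe sets. By limma, 1 of 7 genes was called at an adjusted p under 0.05, against 16% of all genes tested, so the share called was near the background. None of the 7 was called higher, where 2 had an unadjusted p under 0.05, and 9.41% of all genes were called higher and 6.60% lower. The median log2 change was -0.07 for the 7 genes and -0.0086 for all genes tested. All changes are on the scale of log2(intensity + 16), which understates changes of dim probe sets, and intensities of different probe sets are not compared with each other.

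**Figure D1:**
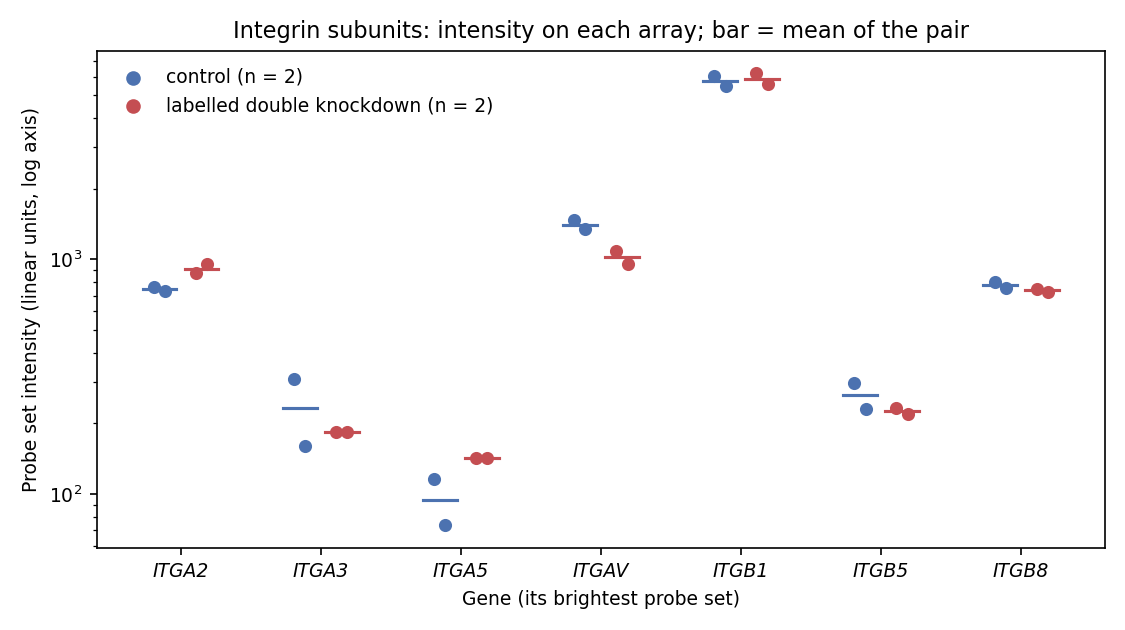
Intensity (linear units on a log axis) of the brightest probe set of each integrin subunit on the 2 control arrays and the 2 arrays labelled double knockdown, with a bar at the mean of each pair. The 2 groups are apart for ITGA2, ITGA5, ITGAV and ITGB8, as they are for 57.5% of all genes tested. The control pair is widest for ITGA3 (308 and 160).

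ITGAV, the alpha subunit of the RGD-binding receptors, fell 1.38-fold. Its single probe set read 1464 and 1346 in the control and 1079.7 and 956 on the arrays labelled double knockdown. Both control arrays thus lay above both others, with means of 1405 ± 83.3 (SD, n = 2) and 1018 ± 87.2 (n = 2). The log2 change was -0.46 ± 0.10 SE (95% interval -0.69 to -0.23, adjusted p = 0.0194 by limma), and 9.23% of the genes tested had a larger change in either direction. The direction was the same whichever array was left out. The call was lost without control replicate 1 (log2 change -0.40, adjusted p = 0.0645), without double knockdown replicate 1 (-0.55, 0.0592) and without double knockdown replicate 2 (-0.37, 0.176).

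ITGA5, which with ITGB1 forms the main fibronectin receptor, also has a single probe set. It read 116 and 73.6 in the control and 142.1 and 141.8 on the arrays labelled double knockdown. The groups did not overlap, but the control pair was wide: replicate 1 was 1.57 times replicate 2. The means were 94.7 ± 29.8 (SD, n = 2) and 142 ± 0.185 (n = 2), a log2 difference of 0.54 ± 0.16 SE (95% interval 0.16 to 0.92, adjusted p = 0.0627 by limma). This was the largest difference among the 7 genes, and 6.07% of all genes tested had a larger one. Without control replicate 1 the log2 difference was 0.82 and passed the test (adjusted p = 0.00521), and without control replicate 2 it was 0.26 (0.111), so its size depended on which control array was used.

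ITGA2, the alpha subunit of the main epithelial collagen receptor, has a pair of probe sets that differed from each other. The brighter read 763 and 731 in the control and 876 and 951 on the arrays labelled double knockdown, with no overlap (log2 difference 0.28 ± 0.09 SE, 95% interval 0.08 to 0.49, adjusted p = 0.0699 by limma). The dimmer read 252 and 236 in the control against 250.2 and 248.5 in the other group, where the groups overlapped (log2 difference 0.03, adjusted p = 0.866 in the fit over probe sets). With the mean of both probe sets the log2 difference was 0.16 (adjusted p = 0.145). The higher level thus rested on the brighter probe set.

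ITGA3, the laminin-binding partner of ITGB1, had the widest spread. Its single probe set read 308 and 160 in the control, and both arrays labelled double knockdown had the identical value of 184, between the control arrays. Identical values on that pair occurred for 0.878% of all probe sets. The log2 difference was -0.25 ± 0.24 SE (95% interval -0.81 to 0.30, adjusted p = 0.534 by limma). It turned to 0.19 without control replicate 1 and was -0.70 without control replicate 2 (adjusted p = 0.00763), so these arrays do not settle a direction for ITGA3.

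ITGB1, the common beta subunit, had 7 probe sets, of which 3 were above the brightness minimum. The brightest read 6053 and 5469 in the control and 6197 and 5572 on the arrays labelled double knockdown, and the groups overlapped. Its log2 difference was 0.03 ± 0.10 SE (95% interval -0.20 to 0.26, adjusted p = 0.882 by limma). The next read 2564 and 2678 against 2790.3 and 2434 (log2 difference -0.0078), and the third 2477 and 2649 against 2685 and 2549 (0.03). The 4 dim probe sets had mean intensities of 4.03 to 11.9 and log2 differences between -0.02 and 0.05. The interval of the brightest probe set leaves room for a change of up to 0.26 in size on the log2 scale.

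ITGB5, a partner of ITGAV in a vitronectin receptor, had 4 probe sets, all above the minimum and all with a lower mean on the arrays labelled double knockdown. The brightest read 297 and 230 in the control against 232 and 219 in the other group, which overlapped (log2 difference -0.20 ± 0.12 SE, 95% interval -0.49 to 0.08, adjusted p = 0.322 by limma). The second read 149 and 135 against 130.1 and 117, with no overlap (log2 difference -0.18, adjusted p = 0.278 in the fit over probe sets). The other two differed by -0.15 and -0.01. These probe sets share a transcript and are not replicates, and none passed the test. Without control replicate 2 the brightest had a log2 difference of -0.38 and passed (adjusted p = 0.0477), and without control replicate 1 it had -0.03 (adjusted p = 0.900).

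ITGB8, the partner of ITGAV in a receptor that activates latent TGF-beta, had 5 probe sets, 3 of them above the minimum. The brightest read 801 and 756 in the control and 748 and 728 on the arrays labelled double knockdown, a small gap with no overlap (log2 difference -0.07 ± 0.09 SE, 95% interval -0.27 to 0.12, adjusted p = 0.621 by limma). The next read 36 and 36.3 against 32.4 and 35.8 (log2 difference -0.06). The third, at 23.9 and 25.7 against 27.8 and 29.5, was higher in the other group (0.13, adjusted p = 0.368 in the fit over probe sets). The bright probe sets of ITGB8 thus differed in sign, and none passed.

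**Figure D2:**
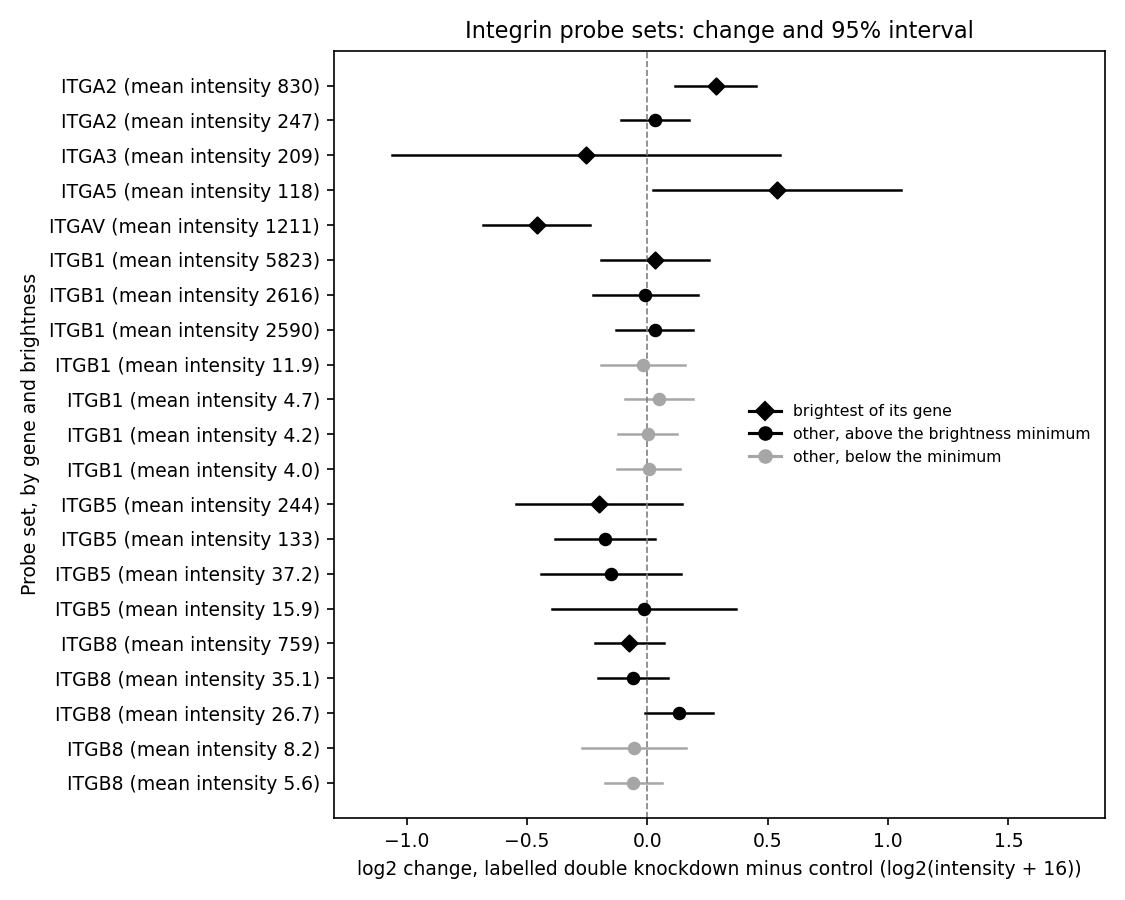
Log2 change (arrays labelled double knockdown minus control, on the log2(intensity + 16) scale) of all 21 probe sets, by gene and brightness, with 95% intervals from the limma fit without a brightness filter. Diamonds are the brightest probe set of each gene and grey points lie below the brightness minimum; ITGAV is at -0.46, the ITGB1 probe sets lie close to 0, and ITGA3 has the widest interval.

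Over probe sets rather than genes, 1 of the 15 integrin probe sets above the minimum was called, that of ITGAV (adjusted p = 0.0235 by limma), against 13.7% of 22904 probe sets (7.97% higher and 5.71% lower). The sign of the difference was positive for 9 of the 21 probe sets and negative for 12. Groups that did not overlap were seen for 4 of the 7 genes, and for 57.5% of all genes tested. Control replicate 1 was above control replicate 2 on the brightest probe set of each of the 7 genes. The ratio ran from 1.04 for ITGA2 to 1.93 for ITGA3. Some dimmer probe sets of ITGB1 and ITGB8 had the opposite order. The median absolute log2 difference within the control pair was 0.115 over all genes. The array-to-array spread in the control therefore limits ITGA3, ITGA5 and ITGB5 most.

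**Figure D3:**
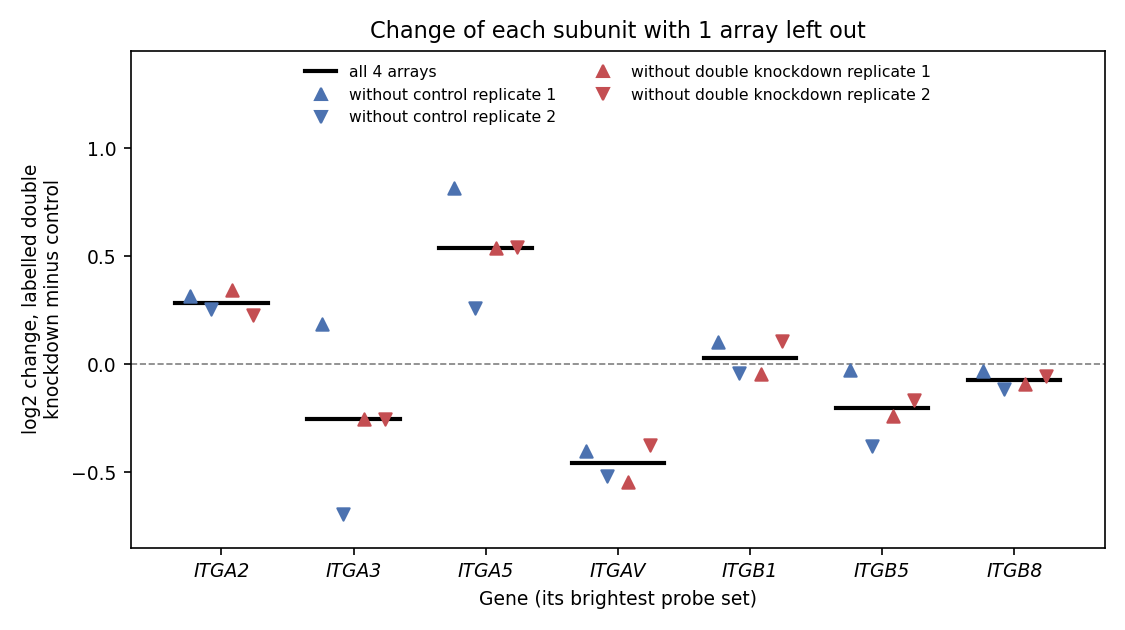
Log2 change of each integrin subunit with all 4 arrays (black bar) and with 1 array left out (triangles, blue for control and red for arrays labelled double knockdown). ITGAV stays below 0 and ITGA5 and ITGA2 above 0 in each fit, while ITGA3 moves from -0.70 to 0.19 and ITGB1 lies on both sides of 0.

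The genes nearest to ITGAV in their pattern over the 4 arrays, by Euclidean distance of log2 values relative to the control mean, were POMGNT1, a glycosyltransferase, DSP, the desmosome protein desmoplakin, and SURF6, a nucleolar protein, at distances of 0.0393, 0.0399 and 0.0463. Their log2 changes were -0.45, -0.47 and -0.45. With 4 arrays in 2 groups, this likeness holds little beyond an equal change.

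Of 18 other integrin subunits, 13 were tested, and 2 were called by limma, 1 in each direction (15.4%, against 16% of all genes, so near the background). ITGAE, the alpha subunit of a receptor for E-cadherin on lymphocytes, read 552 and 643 in the control and 757 and 864 on the arrays labelled double knockdown (log2 change 0.43 ± 0.11 SE, adjusted p = 0.0359). ITGB2, the beta subunit of leukocyte integrins, read 50.3 and 37.3 against 27.2 and 24.8 (log2 change -0.50 ± 0.12 SE, adjusted p = 0.0264). Of the 3 ITGB2 probe sets above the minimum only this 1 passed, and the smallest log2 difference was -0.14. Both calls were lost without control replicate 1 (ITGAE adjusted p = 0.118, ITGB2 0.0688) and without either array labelled double knockdown (up to 0.256 and 0.163). The remaining collagen-binding alpha subunits, ITGA1, ITGA10 and ITGA11, are named for their ligand and not by the naming rule; they had log2 differences of 0.42, -0.08 and -0.06, none past the test (adjusted p = 0.0937, 0.603 and 0.725). ITGA4, ITGA7, ITGA8, ITGA9 and ITGAX were below the brightness minimum. The median of the 13 was -0.08.

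The ligands were read from a list of matrix proteins that integrins bind. This list, like the others here, was chosen with earlier results of these data known, so its share called may not be independent of them. Of 23 ligand genes tested, 7 fell and 2 rose by limma (39.1% called, against 16% of all genes), at a median log2 change of -0.15. FN1, which encodes fibronectin, the ligand of ITGA5, ITGAV and their partners, read 672 and 471 in the control and 249 and 199 on the arrays labelled double knockdown (log2 change -1.28 ± 0.17 SE, adjusted p = 0.00311). All 4 of its probe sets above the minimum were called lower, with log2 changes from -1.40 to -1.23. THBS1, the matrix glycoprotein thrombospondin, fell most on this list (-1.89 ± 0.23 SE, adjusted p = 0.00199). Its control arrays were far apart, at 328 and 177, but both lay above the 56.0 and 50.8 of the other group. All 3 THBS1 probe sets above the minimum were called lower, but their log2 changes ranged widely, from -1.99 to -0.81.

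COL8A1, a short-chain collagen, read 193 and 174 against 97.1 and 82.8 (log2 change -0.92 ± 0.10 SE, adjusted p = 0.00146). CCN1, a matricellular ligand of ITGAV receptors, fell by 0.84 on the log2 scale (adjusted p = 0.00719), and COL7A1, the collagen of anchoring fibrils, fell by 0.50 (0.0103). Each had 2 probe sets above the minimum, of which 1 was called. The other had a log2 difference of -0.19 for CCN1 and -0.57 for COL7A1. The genes that rose, LAMB3 and LAMB1, encode laminin subunits. The other laminin genes tested, named after their values were seen, were LAMA5, which read 398 and 312 against 274 and 215 (log2 difference -0.51, adjusted p = 0.0519 by limma), and LAMC1 (0.08, 0.665). LAMB3 read 3119 and 2096 against 5854 and 5032 (log2 change 1.08 ± 0.18 SE, adjusted p = 0.00707), and LAMB1 read 582 and 589.5 against 859 and 847 (0.53 ± 0.08 SE, 0.00640). FN1, THBS1, COL8A1 and LAMB3 kept their calls whichever array was left out. CCN1 lost its call without double knockdown replicate 2 (adjusted p = 0.0569), and COL7A1 and LAMB1 without either array of that group (up to 0.0854 and 0.0617).

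Of 37 genes for adaptors and kinases of the adhesion complex, 6 were called lower and 3 higher by limma on their brightest probe set. That was 24.3% called, against 16% of all genes, at a median log2 change of -0.19. NEDD9, a docking protein that focal adhesion kinase phosphorylates, read 247 and 291 in the control and 104 and 91.3 on the arrays labelled double knockdown (log2 change -1.32 ± 0.11 SE, adjusted p = 0.000339). TGFB1I1, which encodes the paxillin relative HIC5, rose, from 159.7 and 151 to 411 and 417 (1.32 ± 0.08 SE, adjusted p = 0.000111). Of its 3 probe sets above the minimum NEDD9 had 2 called lower, and the third had a log2 difference of -0.04. Both genes stayed called without any 1 of the arrays, with adjusted p up to 0.00308 and 0.00166. KANK1, which links talin to microtubule sites, fell by 0.66 on the log2 scale (adjusted p = 0.00606). PARVA, a partner of integrin-linked kinase, fell by 0.40 (0.0254), TNS4, a tensin, by 0.47 (0.0326), and FERMT1, the epithelial kindlin that activates beta subunits, by 0.37 (0.0330).

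CRKL, an adaptor of phosphorylated docking proteins, rose by 0.35 on the log2 scale (adjusted p = 0.0341 by limma). TLN1, which encodes talin, rose on a dim probe set with a mean intensity of 46.5 (0.57, adjusted p = 0.00702), while its other probe set above the minimum had -0.20, so no direction is given for the gene. KANK1 and PARVA also had a probe set of opposite sign, at 0.12 and 0.10, and that for neither passed the test. PARVA had 1 of 6 probe sets above the minimum called, and TNS4 1 of 2, with the other at -0.12. KANK1 and TLN1 lost their calls without double knockdown replicate 2 (adjusted p = 0.0622 and 0.0701), TNS4 and FERMT1 without control replicate 1 or either array of the other group (up to 0.152 and 0.199), and PARVA and CRKL without any 1 of the arrays (up to 0.213 and 0.247).

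Among 22 genes for integrin traffic and membrane partners, 2 rose and 1 fell, 13.6% against 16% of all genes, at a median log2 change of 0.05. SLC3A2, the heavy chain of CD98, which binds beta subunit tails and carries amino acid transporters, read 647 and 627 in the control and 938 and 924 on the arrays labelled double knockdown (log2 change 0.54 ± 0.08 SE, adjusted p = 0.00629 by limma). CD47, a partner of ITGAV receptors, read 1213 and 1335 against 1813 and 1996 (0.57 ± 0.10 SE, 0.00812). Of its 5 probe sets above the minimum 2 were called higher, and 1 had the opposite sign (-0.02). The tetraspanin CD81 read 1561 and 1249 against 1060.2 and 989 (-0.44 ± 0.12 SE, 0.0422). SLC3A2 lost its call without either array labelled double knockdown (up to 0.0599), CD47 without replicate 2 of that group (0.0842) and CD81 without these or control replicate 1 (up to 0.236).

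Some ITGAV receptors release certain TGF-beta ligands from their latent complex, so TGF-beta ligands, latency proteins and receptors were read as well. The list was not limited to ligands that these receptors release, and no release was measured. Of 11 tested, 2 rose and 1 fell by limma (27.3% called, against 16% of all genes), at a median log2 change of -0.0030. TGFB2, which encodes a TGF-beta ligand, read 74.5 and 63.3 in the control and 140.3 and 144.5 on the arrays labelled double knockdown (log2 change 0.90 ± 0.10 SE, adjusted p = 0.00116), and its 3 probe sets above the minimum were all called higher. TGFB1, another ligand, read 59.99 and 47.8 against 79.2 and 80.2 (0.46 ± 0.10 SE, 0.0245), and its other probe set had -0.02. TGFBR3, the co-receptor betaglycan, read 101 and 80.1 against 49.0 and 51.1 (-0.69 ± 0.11 SE, 0.00707). The TGFB2 call stood without any 1 of the arrays, TGFBR3 lost it without double knockdown replicate 1 (0.0501), and TGFB1 without control replicate 2 or either array of the other group (up to 0.146).

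**Figure D4:**
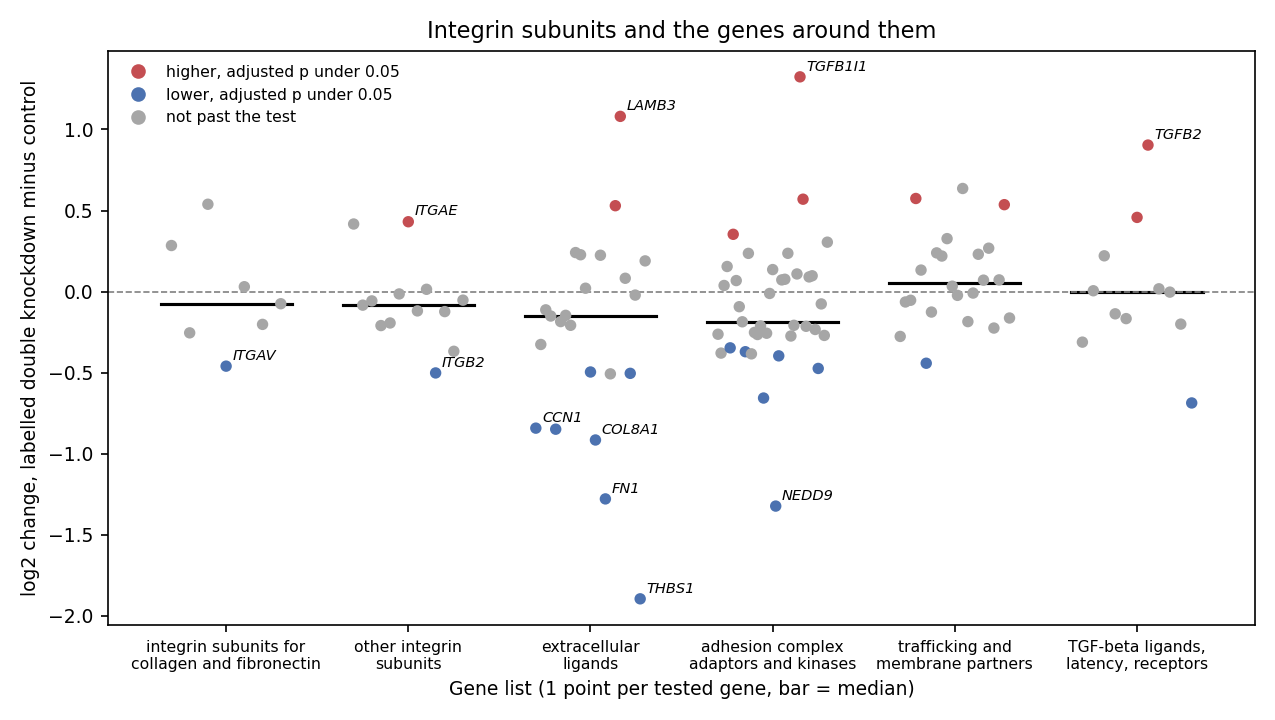
Log2 change of each tested gene by list, with a bar at the list's median; red points were called higher and blue points lower at an adjusted p under 0.05 by limma. ITGAV is the only called point among the 7 integrin subunits on the left, and the farthest points are THBS1 at -1.89 and TGFB1I1 at 1.32.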

How the data were processed

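Total RNA was labelled with biotin and hybridised, per the labels' protocols. The values deposited by the authors are intensities on a linear scale, judged by their range. Their summarisation and normalization steps are not given in the sources used here. Array medians lay between 14.5 and 14.7, and no further normalization was applied. Probe sets were named from the platform annotation. Of 54675, 62 were controls, 41091 named 1 gene, 1801 several and 11721 none, and 41037 took current symbols from the RefSeq table of GRCh38.p14 by gene identifier. A gene is its probe set with the highest mean. Genes were tested where that mean reached 14.7, the median over all probe sets.

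Values were log2(intensity + 16), tested two-sided by lmFit and eBayes (limma 3.58.1, R 4.3.3) over 12951 genes, or 22904 probe sets, with Benjamini-Hochberg adjustment. The members, lists and alternatives were chosen with earlier results of these data known. Named genes are all members, called integrin subunits, up to 5 called genes per list and direction, and the 3 genes nearest to each called member. In simulated data for this comparison with 12951 genes, recovery was 25.4% for log2 changes of 0.5, 71.6% for 1 and 97.0% for 2. Alternatives were other filters, constants, normalizations, probe set choices, an intensity trend, a replicate block and leaving out each array.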

Additional observations from a re-analysis of the deposited data

How the results depend on the processing

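ITGAV was lower in each of the alternatives tried. In the fits over genes it lost its call in the 3 fits without 1 array given above. Over probe sets, it was also not called without a brightness filter (adjusted p = 0.0650 by limma) or with a constant of 1. The count of integrin genes called was 1 with all arrays. It was 2 with cyclic loess normalization (ITGA2 also passed, adjusted p = 0.0457 by limma), 2 without probe sets of the types that can match several transcripts (ITGA5 also passed, 0.0475) and from 0 to 3 without 1 array. At the counts of 0, which came from leaving out either array labelled double knockdown, 3 and 2 genes had an unadjusted p under 0.05. Sample numbers are shared by the groups but no label says that they mark a pair. Deviations of same-numbered arrays correlated at 0.244 over genes. The fit with the replicate block called 2504 genes against 2074 and 2 integrin genes, ITGA5 among them (adjusted p = 0.0447). The count of integrin probe sets called was 1, or 0 without a brightness filter and 0 with a constant of 1 (3 had an unadjusted p under 0.05 in each), and 0 to 2 without 1 array. The pathway lists had 26 calls, 17 without a brightness filter and 8 to 36 without 1 array, and all genes 536 to 1995 without 1 array. ITGB1 had a log2 difference of -0.0078 without the probe set types named above, and -0.0463 to 0.11 without 1 array. ITGA3 had -0.70 to 0.19 without 1 array. The cause of these differences was not tested, other than that a fit without an array rests on 3. In the simulated data, where 200 of 12951 genes were changed, most changes of 0.5 on the log2 scale were missed. Far more genes, 2074, were called on the real arrays, so that recovery may not carry over to them. ITGA3 has only a probe set that can match several transcripts, so it had no value without those.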
